A study of Mus musculus with 32 samples.

Results

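The late step of tumor growth was described by setting tumor cells of week 4 against tumor cells of week 3. The members were the 4 libraries labelled week 4 and the 4 labelled week 3, 8 of the 32 libraries of the series, and every gene of their table was used except 27 rows named as a date. The series followed mouse MMTV-PyMT breast cancer cells and CD8 T cells over tumor development, with another set in which Mogat1 was knocked down. The stated aim was to find how tumors escape immune attack and grow. Both weeks were given as the same breast cancer cell line, in which the mammary tumor virus promoter drives the polyomavirus middle T oncogene. No genotype, treatment, host strain, age or sort differed between them in the labels, and no control tissue without tumor entered the comparison. Week 4 was named the late stage, week 3 the middle stage and week 2, with 3 libraries that shared the fit, the early stage. The labels number the replicates but do not say whether each came from its own animal, so the p-values measure the spread between these libraries, which may be technical in part.

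MMTV-PyMT tumors begin as luminal mammary growths and progress within weeks, which makes them a common model of staged breast cancer. Interferons induce antiviral genes through STAT and IRF proteins, and interferon gamma from T cells adds GTPases, peptide loading genes and the chemokines CXCL9 and CXCL10. Mogat1 joins a fatty acid to monoacylglycerol, a step on the way to the triacylglycerol stored in lipid droplets.

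Whole read numbers recovered from the deposited TPM values (transcript levels, as read numbers scaled for gene length and library total) gave 25.8 to 29.7 megareads per week 4 library and 21.9 to 26.4 per week 3 library. Within week 4 the libraries correlated at 0.976 to 0.985 across genes, within week 3 at 0.972 to 0.984, and across the weeks at 0.948 to 0.966. Mitochondrially encoded genes took 16.1% of TPM in week 4 replicate 3, 9.81% to 10.1% in the other week 4 libraries and 7.18% to 9.69% in week 3. Of the epithelial markers, Epcam stood at 474 to 566 TPM at week 4 and 389 to 513 TPM at week 3, and Krt8 at 571 to 754 TPM at week 4 and 479 to 672 TPM at week 3. Krt18 and Cdh1 were also high in all 8 libraries, while Krt19, another luminal keratin, was low at 2.02 to 6.29 TPM at week 4 and 3.83 to 16.4 TPM at week 3. None of these 5 markers passed the test between the weeks.

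At week 4, the cells held less RNA of most tested interferon-induced and endothelial genes and of part of the mesenchymal list than at week 3, and more of a smaller set that included Mogat1, Scd1, Ccl20, Tnf, Elf5 and Gfap. Of 14770 genes tested with limma on log2(TPM + 1), 817 rose at week 4 (5.53%) and 1209 fell (8.19%) at an adjusted p under 0.05. Changes of at least 2-fold were 166 rises (1.12%) and 546 falls (3.7%), so the larger changes were mostly falls. In 4342 genes (29.4%) the 4 week 4 values did not overlap the 4 week 3 values. The median log2 difference over all tested genes was -0.02. Quantile normalization gave 1203 rises and 1135 falls, which made 51.5% of the calls rises, against 40.3% without it. The number of calls was 1251 without week 3 replicate 3, 1289 without week 4 replicate 3 and 1294 without week 4 replicate 4. It was 3580 without week 2 replicate 1 and 3857 with weeks 3 and 4 alone. These are bulk libraries, in which fewer cells of a type and less RNA per cell cannot be told apart.

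**Figure D1:**
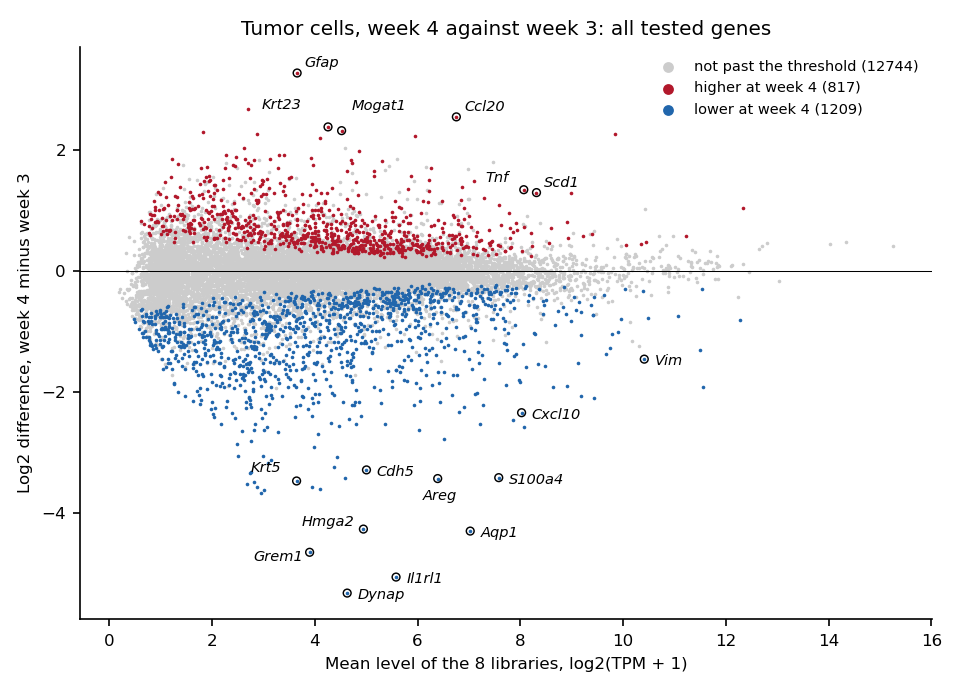
Each point is 1 of 14770 tested genes, with the mean level of the 8 libraries as log2(TPM + 1) across and the log2 difference, week 4 minus week 3, up. Red points are the 817 genes higher at week 4, blue points the 1209 lower, and the falls reach -5.33 (Dynap) while the rises reach 3.28 (Gfap).

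The largest rises joined genes of several kinds. Gfap, the intermediate filament of astrocytes (chr11:102887336-102897200, mm10), had 19.5, 16.4, 15.5 and 36.1 TPM at week 4, against 1.13, 1.09, 2.48 and 0.574 TPM at week 3 (log2 difference 3.28 ± 0.28 SE, adjusted p = 8.8e-05). Ccl20, the chemokine that draws CCR6-bearing cells, had 246, 198, 113 and 180.5 TPM at week 4, against 27.6, 33.3, 26.1 and 31.2 TPM at week 3 (log2 difference 2.55 ± 0.33 SE, adjusted p = 0.00076). Krt23, a type I keratin, had 29.5, 32.96, 26.6 and 34.4 TPM at week 4, against 6.08, 4.32, 2.95 and 8.06 TPM at week 3 (log2 difference 2.39 ± 0.24 SE, adjusted p = 0.00025). In all 3 genes every week 4 library lay above every week 3 library, as the rule that chose the largest rises required. Hhipl2 was among the most even, with 10.7, 9.66, 10.9 and 13.6 TPM at week 4, against 1.72, 1.34, 1.54 and 1.44 TPM at week 3 (log2 difference 2.28 ± 0.16 SE, adjusted p = 3.2e-05). Il23a, the p19 subunit of interleukin 23, had 40.1, 51.5, 33.5 and 57.4 TPM at week 4 and 8.58, 15.1, 11.2 and 8.27 TPM at week 3 (log2 difference 1.99 ± 0.21 SE, adjusted p = 0.0003). Mfi2, the iron-binding melanotransferrin, averaged 8.93 ± 2.04 TPM at week 4 and 1.44 ± 0.619 TPM at week 3 (SD, n = 4 each), a log2 difference of 2.04 (adjusted p = 0.00025). Igsf21 differed by 1.93 (adjusted p = 0.00023), Stk32b, a serine/threonine kinase, by 1.93 (adjusted p = 0.00017) and the uncharacterised LOC105247125 by 2.2 (adjusted p = 0.00038).

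Sox2, a stem cell and neural transcription factor, rose beside Gfap, with 40.8, 37.5, 29.7 and 51.3 TPM at week 4, against 11.98, 8.32, 10.7 and 9.97 TPM at week 3 (log2 difference 1.85 ± 0.2 SE, adjusted p = 0.0003). Of 12 tested genes of 14 on the neural lineage list, 3 rose (Gfap, Sox2 and Nptx1) and 2 fell. Over all tested genes 5.53% rose and 8.19% fell. The neuronal tubulin Tubb3 fell, to 0.402 to 0.902 TPM at week 4, against 3.92 to 5.37 TPM at week 3 (-1.73, adjusted p = 0.031), as did Pax6 (-0.6, adjusted p = 0.019). The list had no common direction, with a median log2 difference of 0.11. The call on Tubb3 was lost without any 1 of the 8 libraries, at adjusted p values of 0.0612 to 0.0765. The number of falls was 0 without week 4 replicate 2 or 3 and 1 without any 1 of the other libraries.

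Some of the largest rises rest on few reads or on small RNAs. Mir6976 had 1 to 8 reads per library at week 4 and none at week 3, so no fold is given. Mrgprg, a receptor of the Mas-related family, had 2.23, 11.5, 28.1 and 1.71 TPM at week 4, against 0.331, 0.218, 0 and 0.129 TPM at week 3 (2.69, adjusted p = 0.047). The week 4 libraries were uneven in it, and the adjusted p was 0.117 without week 4 replicate 3 and 0.113 without week 4 replicate 2. Without any 1 of the 4 week 3 libraries it was 0.0783 to 0.108. Rnu3a, a gene of the U3 RNA that guides ribosomal RNA processing, had 86.5, 91.6, 100.4 and 125 TPM at week 4 and 31.9, 18.1, 16.9 and 18.02 TPM at week 3 (2.23, adjusted p = 0.001). Near-identical copies of such small RNA genes can share reads, so that level is uncertain. Efhd1, a mitochondrial calcium-binding protein, rose by 1.92 (adjusted p = 0.017), a call lost without week 3 replicate 3 (adjusted p = 0.0535) or week 4 replicate 3 (0.0516).

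Among the largest falls, Dynap and Grem1 were under 1 TPM in all 4 week 4 libraries. Dynap had 0.141, 0.288, 0 and 0.141 TPM at week 4, against 44.7, 69.5, 49.5 and 25.7 TPM at week 3 (log2 difference -5.33 ± 0.26 SE, adjusted p = 1.9e-06). Il1rl1, the receptor of interleukin 33 (chr1:40404864-40465418, mm10), had 0.801, 1.49, 1.41 and 3.22 TPM at week 4, against 65.7, 148, 96.7 and 57.5 TPM at week 3 (log2 difference -5.06 ± 0.4 SE, adjusted p = 6.4e-05). Its ligand Il33 fell as well, with 38.2, 59.9, 65.8 and 72.5 TPM at week 4 and 109, 142, 103 and 153 TPM at week 3 (log2 difference -1.11 ± 0.19 SE, adjusted p = 0.0037). Neither gene had overlapping weeks, as the rule for the largest falls required of Il1rl1, and the receptor fell further than the ligand on the log2 scale. Grem1, a secreted BMP antagonist (chr2:113748675-113758648, mm10), was listed at 0, 0.298, 0 and 0.194 TPM at week 4, against 26.5, 38.1, 25.4 and 20.8 TPM at week 3 (log2 difference -4.65 ± 0.22 SE, adjusted p = 1.9e-06). Hmga2, a chromatin protein of embryonic and invasive cells, had 1.697, 3.32, 0.604 and 2.86 TPM at week 4 and 64.2, 69.1, 64.4 and 32.2 TPM at week 3 (log2 difference -4.27 ± 0.38 SE, adjusted p = 0.00011). The water channel Aqp1 had 10.2, 12.4, 10.8 and 8.88 TPM at week 4, against 119, 388, 297 and 188 TPM at week 3 (log2 difference -4.3 ± 0.48 SE, adjusted p = 0.00038). Week 3 replicate 4 was the lowest of its week in Grem1 and Hmga2 and still far above week 4.

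Msln, the surface protein mesothelin, had no read in any week 4 library, against 11.4, 14.1, 11.2 and 6.72 TPM at week 3 (128 to 316 reads). Set against a limit of 3 reads in each week 4 library, it was at least 90.5-fold lower at week 4. Prl2c3, a placental prolactin relative, had no read at week 4 and 55 to 240 reads per library at week 3, at least 50.1-fold lower by the same limit. Prl2c2 had 2 reads in week 4 replicate 2 and none in the other week 4 libraries, against 19.4, 16.1, 8.48 and 6.14 TPM at week 3. Prl2c2 and Prl2c3 are near-identical copies, so the split between them is uncertain. Fitted log2 differences of genes this close to 0 depend on the pseudocount.

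The other large falls were of cell contact and signal genes. Pkp1, a desmosomal plaque protein, differed by -3.62 (adjusted p = 5.9e-05), Clcf1, a cytokine of the CNTF family, by -3.61 (adjusted p = 0.00046), and Prkg2, a cGMP-dependent kinase, by -3.58 (adjusted p = 1.7e-05). Brinp3 differed by -3.5 (adjusted p = 0.00023). S100a4, a calcium-binding protein of migrating cells, had 36.7, 33.6, 27.6 and 27.1 TPM at week 4, against 287, 442, 406 and 262 TPM at week 3 (log2 difference -3.42 ± 0.27 SE, adjusted p = 6.4e-05). In each of these the weeks did not overlap, as the rule that chose the largest falls required.

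**Figure D2:**
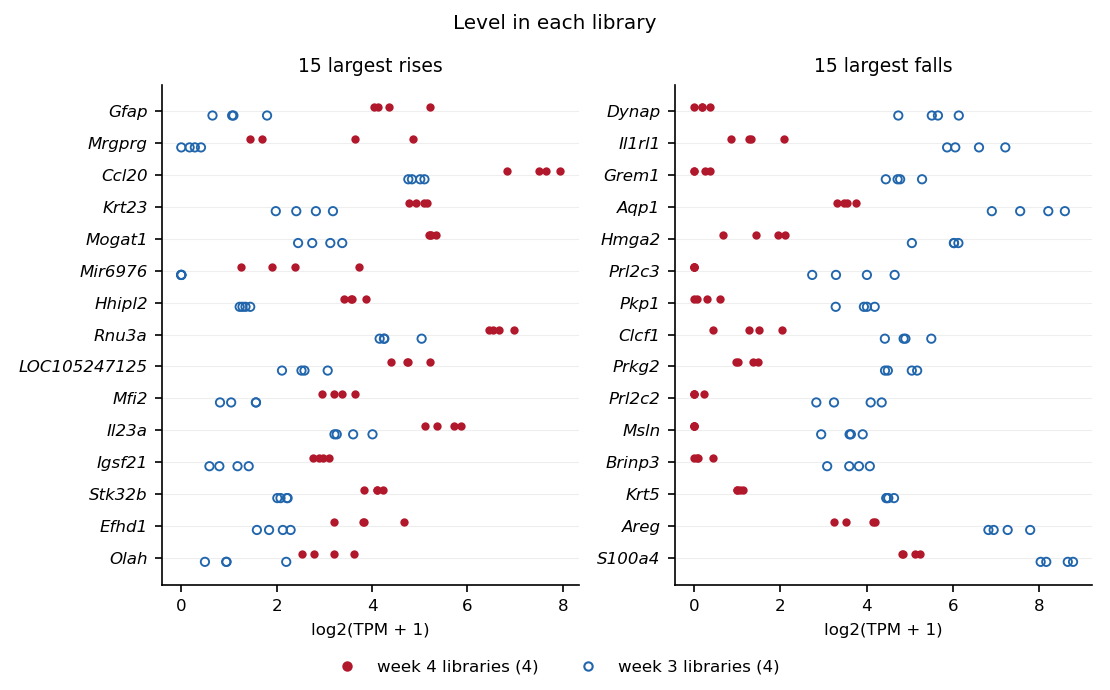
Dots give the level of the 15 genes with the largest rise (left) and the 15 with the largest fall (right) in each library, as log2(TPM + 1), with week 4 as filled red and week 3 as open blue dots. The weeks do not overlap in any of the 30 genes, as the rule that chose them required, and Krt5 is the tightest of the falls.

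Interferon-stimulated antiviral genes fell together. Of 36 tested genes of 37 on the list, 29 fell and none rose (background 8.19% lower and 5.53% higher), with a median log2 difference of -1.28, against -0.02 over all tested genes. Under the 16 other settings and left-out libraries, between 22 and 33 fell. Usp18, the protease that removes ISG15 from proteins, had 4.01, 4.33, 3.46 and 3.85 TPM at week 4, against 25.8, 26.6, 27.9 and 19.7 TPM at week 3 (log2 difference -2.4 ± 0.28 SE, adjusted p = 0.00044). Ifit3 had 5.07, 6.06, 2.66 and 3.14 TPM at week 4 and 27.3, 21.2, 23.2 and 12.9 TPM at week 3 (log2 difference -2.08 ± 0.35 SE, adjusted p = 0.0031), and its near-identical copy Ifit3b differed by -2.43 (adjusted p = 0.005), so the share of each is uncertain. In Usp18 and Ifit3 all 4 week 4 libraries lay below all 4 week 3 libraries. Irf7, which amplifies type I interferon, differed by -1.58 (adjusted p = 0.017), Bst2, which tethers budding virus, by -1.53 (adjusted p = 0.0031), Rsad2 (viperin) by -1.7 (adjusted p = 0.011) and the influenza resistance gene Mx1 by -1.89 (adjusted p = 0.0081). The RNA sensor Ddx58 moved less, at -0.67 (adjusted p = 0.012). Isg15 itself was under the filter, with 0 to 0.458 TPM at week 4 and 0 to 0.665 TPM at week 3.

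Genes induced by interferon gamma fell as well. Of 21 tested, 15 fell and none rose (8.19% and 5.53% over all tested genes), with a median of -1.58. Gbp2, a guanylate-binding protein, had 129, 142, 106 and 70.2 TPM at week 4, against 519.8, 372, 393 and 299 TPM at week 3 (log2 difference -1.84 ± 0.22 SE, adjusted p = 0.00052). The immunity-related GTPase Igtp had 219, 209.6, 174 and 71.4 TPM at week 4 and 975, 395, 637 and 475 TPM at week 3 (log2 difference -1.91 ± 0.36 SE, adjusted p = 0.0057). Gbp4 had 38.9, 36.4, 30.2 and 14.4 TPM at week 4 and 243, 79.8, 133 and 109 TPM at week 3 (log2 difference -2.17 ± 0.35 SE, adjusted p = 0.0029). In Igtp and Gbp4 week 4 replicate 4 was the lowest of all 8 libraries and week 3 replicate 1 the highest, and the weeks did not overlap. Tgtp1 and Tgtp2, T cell-induced GTPases, differed by -2.03 (adjusted p = 0.012) and -2.63 (adjusted p = 0.0016), with reads that near-identical copies may share. Ido1, which breaks down tryptophan, had no read at week 4 and 2.16, 1.51, 3.85 and 3.64 TPM at week 3 (27 to 66 reads), at least 18.4-fold lower against the limit of 3 reads per library. Socs1, the feedback inhibitor of the pathway, fell too (-1.48, adjusted p = 0.0088), as did the transcription factor Irf8 (-1.61, adjusted p = 0.026).

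The promoters of these genes were read in RefSeq's table for GRCm38.p6 (mm10), which covers 250 bases before to 50 after each gene start and matched 10744 of the 14770 tested genes. The core of the interferon-stimulated response element, to which STAT and IRF proteins bind, was searched on both strands as a pair of GAAA runs with any 2 bases between them. It stood in 11 of 25 matched antiviral genes (44.0%) and 10 of 16 matched interferon gamma genes (62.5%), against 3.82% of the matched tested genes and 3.99% of all 27025 genes of the promoter table. These windows show the core, in capitals, with up to 15 bases on either side, read 5′ to 3′ on the strand that carries it. They are shown because these genes fell and their promoter windows hold the core. The list members Eif2ak2 and Ifih1 also hold the core but were not called, and Isg15 holds it but was untested. Core positions count from the gene start, negative before it.

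Ifit1, chr19:34640789-34640828, minus strand, core at -85: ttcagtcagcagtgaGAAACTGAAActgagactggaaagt
Rsad2, chr12:26456548-26456587, plus strand, core at -120: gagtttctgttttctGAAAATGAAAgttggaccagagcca
Oas1a, chr5:120907515-120907554, minus strand, core at -14: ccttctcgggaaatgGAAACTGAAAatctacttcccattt
Stat2, chr10:128270261-128270300, minus strand, core at -222: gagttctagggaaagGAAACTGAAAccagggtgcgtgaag
Gbp2, chr3:142620589-142620628, minus strand, core at -59: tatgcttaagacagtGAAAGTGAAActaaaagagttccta
Gbp7, chr3:142530268-142530307, minus strand, core at -53: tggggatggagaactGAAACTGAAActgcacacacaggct
Igtp, chr11:58199507-58199546, plus strand, core at -34: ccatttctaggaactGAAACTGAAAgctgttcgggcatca
Irgm2, chr11:58214898-58214937, plus strand, core at -64: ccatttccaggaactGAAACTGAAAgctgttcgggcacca
Tgtp2, chr11:49064258-49064297, minus strand, core at -70: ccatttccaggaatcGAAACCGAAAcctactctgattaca
Socs1, chr16:10785589-10785628, minus strand, core at -77: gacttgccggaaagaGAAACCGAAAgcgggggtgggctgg

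The windows of Igtp and Irgm2 were the same at 38 of 40 positions, those of Tgtp1 and Tgtp2 at 30 of 40, and those of Gbp2 and Gbp7 at 17 of 40. Windows were lined up on the core without gaps. The fixed letters of the core therefore match by construction, and a shift of 1 base beside it lowers the number. Over all called genes, list members included, the core stood in 69 of 875 promoters of genes that fell (7.89%) and in 17 of 601 of genes that rose (2.83%). The AP-1 motif TGANTCA stood in 11.3% of the fallen, 6.99% of the risen and 6.83% of all matched tested genes, and in 8.97% of the whole promoter table. A sterol regulatory motif TCACNCCAC stood in 1.37%, 1.5% and 1.38%, an NF-kB motif of GGGA and CC with any 4 bases between them in 31.3%, 32.9% and 30.2%, and a TEAD motif GGAATG in 17.0%, 15.1% and 14.6% of the same sets. All were searched on both strands, and a match describes letters and not binding.

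Peptide loading genes for MHC class I also fell. Of 15 tested, 8 fell and none rose (8.19% and 5.53% over all tested genes), with a median of -0.69. The count was 5 without week 3 replicate 1, week 3 replicate 3 or week 4 replicate 3. B2m, the invariant chain of MHC class I, had 4361, 3884, 3296 and 2909 TPM at week 4, against 6678, 5740.0, 6873 and 5858 TPM at week 3 (log2 difference -0.81 ± 0.15 SE, adjusted p = 0.006). The immunoproteasome subunit Psmb10 had 86.8, 77.96, 60.2 and 47.5 TPM at week 4 and 220.5, 161, 203 and 154 TPM at week 3 (log2 difference -1.45 ± 0.18 SE, adjusted p = 0.00064). The weeks did not overlap in either gene. Tapbpl, a peptide editor, differed by -1.02 (adjusted p = 0.0023) and Nlrc5, the transactivator of the pathway, by -0.89 (adjusted p = 0.013). Tap1, a chain of the peptide transporter, differed by -0.94 (adjusted p = 0.026), and its adjusted p was 0.0653 to 0.0726 without week 3 replicate 1 or 3 or week 4 replicate 3 or 4. Without the filter on low values, the adjusted p of B2m was 0.061.

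Of 8 tested T cell-attracting chemokines, 4 fell and none rose (8.19% and 5.53% over all tested genes), with a median of -1.51. Cxcl9 had 60.6, 76.3, 32.7 and 14.6 TPM at week 4, against 434, 176, 219 and 165 TPM at week 3 (log2 difference -2.53 ± 0.49 SE, adjusted p = 0.007), and Cxcl10 had 102, 116, 70.5 and 53.2 TPM at week 4, against 621, 406, 409.9 and 296 TPM at week 3 (log2 difference -2.34 ± 0.28 SE, adjusted p = 0.00047). Both are ligands of CXCR3, as is Cxcl11, which differed by -2.24 (adjusted p = 0.0012). Ccl5, another T cell attractant, had 14.3, 8.62, 2.7 and 5.19 TPM at week 4 and 52.3, 31.7, 43.3 and 37.9 TPM at week 3 (-2.45, adjusted p = 0.0076). None of the 4 had overlapping weeks, and with voom on the recovered reads the adjusted p of Ccl5 was 0.0561.

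Of 17 tested checkpoint ligands and adenosine enzymes, 7 fell and none rose (8.19% and 5.53% over all tested genes), with a median of -0.49. Nt5e, the enzyme CD73 that makes adenosine from AMP, had 10.4, 13.3, 9.66 and 11.1 TPM at week 4, against 63.5, 88.7, 66.7 and 58.5 TPM at week 3 (log2 difference -2.53 ± 0.19 SE, adjusted p = 6e-05). Entpd1 (CD39), which acts one step before it, differed by -1.2 (adjusted p = 0.016). Cd274, which encodes PD-L1, had 13.3, 19.5, 7.13 and 5.72 TPM at week 4 and 40.99, 27.8, 34.1 and 29.1 TPM at week 3 (log2 difference -1.58 ± 0.3 SE, adjusted p = 0.0061). The costimulatory ligand Cd80 differed by -1.71 (adjusted p = 0.00098), Lgals9 by -0.58 (adjusted p = 0.014) and the antiphagocytic signal Cd47 by -0.48 (adjusted p = 0.043). All week 4 libraries lay outside the week 3 range in Nt5e, Cd274 and Cd80.

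**Figure D3:**
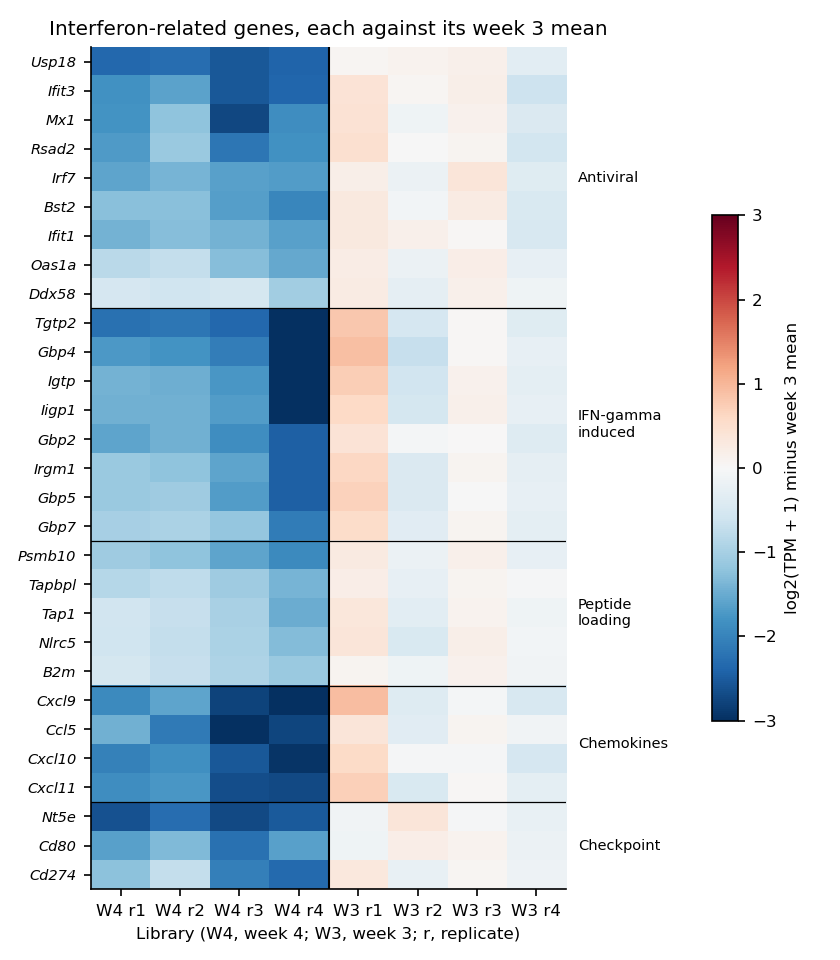
Colour gives log2(TPM + 1) minus the week 3 mean of the gene, for 29 genes down and the 8 libraries across, week 4 to the left of the line and week 3 to the right. Colours stop at 3 either way. The 4 week 4 columns are below 0 throughout, and week 4 replicate 4 is the lowest in the GTPase rows.

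Markers of immune cells were measured beside these genes. The summed level of the T cell list was 95.2 to 129 TPM at week 4 and 88.6 to 187 TPM at week 3, and 1 of the 15 tested fell. That gene was Cd8a, with 2.77, 2.65, 0.245 and 0.883 TPM at week 4 and 5.04, 3.36, 9.397 and 10.9 TPM at week 3 (-1.67, adjusted p = 0.031), a call lost without week 3 replicate 3 or 4 or week 4 replicate 3 or 4 (adjusted p = 0.0843 to 0.09). In the T cell list 14 of 15 differences were below 0, with a median of -0.97. Of 8 tested NK cell genes 2 fell (Gzmb at -1.72, adjusted p = 0.015, and Klrc1 at -1.25, adjusted p = 0.04), with 7 of 8 below 0, a median of -0.93 and sums of 4.2 to 14.9 TPM at week 4 and 21.04 to 42.7 TPM at week 3. Of 10 tested B and plasma cell genes 1 fell (Jchain at -3.06, adjusted p = 0.032), with all 10 below 0, a median of -1.01 and sums of 1.64 to 13.2 TPM at week 4 and 9.19 to 53.9 TPM at week 3. The calls on Klrc1 and Jchain were lost without any of 6 libraries each, at adjusted p values of 0.064 to 0.109 and 0.0678 to 0.0938. Of 20 macrophage and monocyte genes 1 fell (Ly6c2 at -2.13, adjusted p = 0.029, and 0.0595 to 0.0852 without any of 6 libraries), with 19 of 20 below 0, a median of -0.65 and sums of 704 to 2469 TPM at week 4 and 1393 to 2736 TPM at week 3. Under the 16 other settings and left-out libraries 0 to 8 T cell genes, 0 to 5 NK cell genes, 0 to 9 B and plasma cell genes and 0 to 3 macrophage and monocyte genes fell, with the highest count of each under array weights. The pan-leukocyte gene Ptprc stood at 19.2, 17.8, 3.13 and 8.33 TPM at week 4 and 19.7, 13.2, 29.2 and 41.5 TPM at week 3 (-1.18, adjusted p = 0.19), with overlap. Over all tested genes 8.19% fell. The counts of falls among T cell, B and plasma cell, and macrophage genes were near that share, and the NK cell count was above it. The part of these immune cells in the interferon result was not tested.

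Mogat1, for which the series is titled, was among the largest rises (chr1:78511060-78606964, mm10). It had 39.6, 36.9, 35.8 and 36.01 TPM at week 4, against 4.46, 7.73, 5.71 and 9.38 TPM at week 3 (log2 difference 2.33 ± 0.26 SE, adjusted p = 0.00037). The 4 week 4 values were within a narrow range, and the lowest stood well above the highest of week 3. The rule for the largest rises itself required no overlap. The acyltransferases of the last step did not pass the test. Dgat1, which makes triacylglycerol from diacylglycerol, had 36.97, 37.4, 30.5 and 38.8 TPM at week 4 and 33.4, 36.02, 31.3 and 40.7 TPM at week 3 (log2 difference 0.02 ± 0.19 SE, adjusted p = 0.95). Dgat2 had 4.61, 5.21, 1.49 and 3.91 TPM at week 4 and 2.41, 2.87, 2.38 and 2.91 TPM at week 3 (log2 difference 0.32 ± 0.28 SE, adjusted p = 0.5). The weeks overlapped in both. Of 15 tested genes of triacylglycerol synthesis, 1 rose (Mogat1) and 2 fell, with a median of 0.04. Neither count stood far from the shares over all tested genes (5.53% higher and 8.19% lower). The 2 that fell were Agpat3 (-0.93, adjusted p = 0.042), which acylates lysophosphatidic acid, and Agpat9 (-0.92, adjusted p = 0.033), also called Gpat3, which acylates glycerol phosphate. Both calls were lost without week 3 replicate 2 or 4 or week 4 replicate 2, 3 or 4, and that on Agpat3 also without week 3 replicate 3 or week 4 replicate 1, at adjusted p values of 0.0576 to 0.114.

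Of 13 tested lipid droplet and lipolysis genes of 20 on the list, 5 rose and 1 fell, with a median of 0.16. Over all tested genes 5.53% rose and 8.19% fell, so the count of falls was near that share. Plin2, the main droplet coat protein of non-adipose cells, had 113, 123, 81.7 and 118 TPM at week 4, against 66.6, 63.9, 70.7 and 71.5 TPM at week 3 (log2 difference 0.65 ± 0.13 SE, adjusted p = 0.009). G0s2, the inhibitor of adipose triglyceride lipase, had 57.7, 69.5, 69.8 and 58.3 TPM at week 4 and 30.8, 22.6, 24.2 and 35 TPM at week 3 (log2 difference 1.17 ± 0.18 SE, adjusted p = 0.0021). Week 4 and week 3 values stood apart in both. Plin3 differed by 0.39 (adjusted p = 0.011), the lysosomal lipase Lipa by 0.46 (adjusted p = 0.046) and Cidea, which fuses droplets, by 0.74 (adjusted p = 0.041). Mgll, which cleaves the monoacylglycerol that Mogat1 uses, fell, with 1.497, 2.997, 3.83 and 3.597 TPM at week 4 and 4.596, 9.73, 7.92 and 11.7 TPM at week 3 (log2 difference -1.24 ± 0.31 SE, adjusted p = 0.022). The adjusted p of Mgll was 0.0551 to 0.0642 without week 3 replicate 2, 3 or 4 or week 4 replicate 1. The number of rises was 3 without week 3 replicate 2 or 3 or any 1 of the week 4 libraries.

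In fatty acid synthesis and desaturation, 6 of 23 tested genes rose and 1 fell (5.53% and 8.19% over all tested genes), with a median of 0.20. Scd1, the desaturase that makes oleate, had 432, 455, 411 and 509 TPM at week 4, against 204, 179, 163 and 185 TPM at week 3 (log2 difference 1.3 ± 0.14 SE, adjusted p = 0.00029). Srebf1, the transcription factor of lipogenesis, had 651, 527, 649.5 and 594 TPM at week 4 and 409, 255, 358 and 377 TPM at week 3 (log2 difference 0.81 ± 0.2 SE, adjusted p = 0.021). There was no overlap of the weeks in these genes. Acss2, which activates acetate, differed by 0.66 (adjusted p = 0.009), Fads2 by 0.43 (adjusted p = 0.047), the carbohydrate-responsive factor Mlxipl by 0.61 (adjusted p = 0.02) and malic enzyme Me1 by 0.33 (adjusted p = 0.022). The fall was of Acsl5, an acyl-CoA synthetase (-0.58, adjusted p = 0.0027). Fasn, the synthase itself, had 252, 236, 192 and 222 TPM at week 4 and 228, 207, 199 and 209.7 TPM at week 3, a log2 difference of 0.09 (adjusted p = 0.84). Acaca and Acly differed by 0.15 (adjusted p = 0.58) and 0.04 (adjusted p = 0.91). The number of rises was 3 without week 3 replicate 2 or week 4 replicate 3, 2 without week 3 replicate 3 or week 4 replicate 1 or 4, and 12 with weeks 3 and 4 alone. The call on Srebf1 was lost without each of these 5 libraries (adjusted p = 0.0506 to 0.0597).

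Most cholesterol genes did not pass the test. Of 24 tested, 4 fell and none rose (8.19% lower and 5.53% higher over all tested genes), with a median of -0.16. Hmgcs1, which feeds the pathway, had 64.7, 63.5, 56.9 and 63.2 TPM at week 4, against 78.2, 89.8, 79.1 and 77.9 TPM at week 3 (-0.38, adjusted p = 0.015). The others were Msmo1 (-0.59, adjusted p = 0.045), Ebp (-0.45, adjusted p = 0.021) and Hsd17b7 (-0.4, adjusted p = 0.02). The count was 0 without week 4 replicate 3, 1 without week 3 replicate 2 or 3 or week 4 replicate 4, 2 with median-of-ratios rescaling and 1 with quantile normalization. Of 25 tested genes of fatty acid uptake and oxidation, 1 rose, the transporter Slc27a4 (0.65, adjusted p = 0.02), and that call was lost without week 3 replicate 2 or week 4 replicate 1 or 3 (0.0516 to 0.0579). That count of rises was near the 5.53% over all tested genes. Cd36, another fatty acid transporter, had 8.5, 10.6, 3.096 and 2.43 TPM at week 4 and 4.91, 8.91, 11.4 and 20.8 TPM at week 3 (-0.84, adjusted p = 0.26), and Cpt1a, the gate of mitochondrial oxidation, differed by -0.39 (adjusted p = 0.55).

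Glycolysis changed in 1 of 23 tested genes, Aldoc, the aldolase of brain (275 to 339 TPM at week 4, 162 to 231 TPM at week 3, log2 difference 0.68, adjusted p = 0.011). Of 21 hypoxia response genes 2 rose, the vasodilator Adm with 79.02, 111, 139 and 222 TPM at week 4 and 62.96, 68.3, 69.9 and 66.5 TPM at week 3 (0.93, adjusted p = 0.028), and the mTORC1 inhibitor Ddit4 (0.58, adjusted p = 0.016). Adm was spread widely at week 4, highest in replicate 4, and its adjusted p was 0.0609 to 0.0736 without any 1 week 3 library or week 4 replicate 3. Ddit4 had an adjusted p of 0.0527 without week 4 replicate 4. Vegfa, the main angiogenic factor, had 334, 376, 501 and 550.2 TPM at week 4 and 321, 336, 306 and 378 TPM at week 3 (0.37, adjusted p = 0.2). The weeks overlapped in Vegfa. In both lists the count of rises was not far from the 5.53% over all tested genes.

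Of 37 tested nuclear genes of the respiratory chain none rose and 3 fell, Cox5a (-0.6, adjusted p = 0.0018), Cycs (-0.51, adjusted p = 0.023) and Sdhb (-0.37, adjusted p = 0.016), with a median of -0.04. That count of falls was near the 8.19% over all tested genes. All 13 mitochondrially encoded genes had log2 differences above 0, with a median of 0.46, and 2 passed the test, ND3 (0.79, adjusted p = 0.013) and COX3 (0.72, adjusted p = 0.046). Week 4 replicate 3 had the highest mitochondrially encoded share of TPM, 16.1%. Without that library ND3 still passed the test and COX3 did not (adjusted p = 0.126). With voom on the recovered reads neither passed. COX3 was called under no left-out library but week 4 replicate 4, and Cycs and Sdhb missed without week 3 replicate 3 or week 4 replicate 3 or 4 (0.0521 to 0.0664), Cycs also without week 3 replicate 1 or 2 (0.0527 to 0.057). Of 44 cytosolic ribosomal protein genes 3 rose (Rps2, Rps18 and Rpl30 at 0.42, 0.62 and 0.46), 10 with weeks 3 and 4 alone and none without week 3 replicate 3 or week 4 replicate 1, 2 or 4. The count of 3 was near the 5.53% over all tested genes.

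Few genes of the stress lists passed the test. Of 23 tested genes of the unfolded protein and amino acid response 2 rose, the transcription factor Xbp1 with 346, 375, 315 and 404 TPM at week 4 and 201, 237, 227 and 259.9 TPM at week 3 (0.64, adjusted p = 0.0026), and the kinase-like inhibitor Trib3 (0.54, adjusted p = 0.02). Trib3 missed without week 3 replicate 2 or 4 or week 4 replicate 1 or 3 (0.054 to 0.0621). Of 19 NRF2 target and oxidative stress genes 1 rose, catalase (0.55, adjusted p = 0.0063). Neither count of rises stood far from the 5.53% over all tested genes. Of 16 heat shock genes 4 fell, against 8.19% over all tested genes, Hspa4l with 7.34, 8.74, 7.53 and 8.25 TPM at week 4 and 15.6, 24.4, 16.1 and 14.8 TPM at week 3 (-1.04, adjusted p = 0.006), Dnajb1 (-0.66, adjusted p = 0.015), Cryab (-0.56, adjusted p = 0.012) and Hspb8 (-1.61, adjusted p = 0.04). Hspb8 passed without week 3 replicate 4 or week 4 replicate 4 and missed without each of the other 6 libraries (0.0616 to 0.109).

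Part of the luminal list rose at week 4. Of 29 tested, 9 rose and 1 fell (5.53% and 8.19% over all tested genes), with a median of 0.24. Elf5, the transcription factor of luminal progenitors and alveolar cells, had 102, 98.01, 111 and 108 TPM at week 4, against 49.6, 38.5, 37.4 and 41.1 TPM at week 3 (log2 difference 1.32 ± 0.15 SE, adjusted p = 0.00044). Kit, a receptor of luminal progenitors, had 90.2, 86.8, 88.6 and 114 TPM at week 4 and 40.8, 37.6, 38.7 and 50.05 TPM at week 3 (log2 difference 1.16 ± 0.18 SE, adjusted p = 0.0022). Ehf, an epithelial ETS factor, had 290.2, 228, 264 and 256 TPM at week 4 and 133, 114, 108 and 129 TPM at week 3 (log2 difference 1.09 ± 0.19 SE, adjusted p = 0.0044). The weeks did not overlap in these 3 genes. Tfap2c differed by 0.96 (adjusted p = 0.00071), the prolactin receptor Prlr by 0.92 (adjusted p = 0.0081), and the epithelial splicing factors Esrp1 and Esrp2 by 0.58 (adjusted p = 0.0099) and 0.51 (adjusted p = 0.034). Cldn7 and Muc1 made up the 9, at 0.35 (adjusted p = 0.031) and 0.63 (adjusted p = 0.028). The gene that fell was Areg, a growth factor described with its family.

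Of 20 tested milk protein and milk fat genes 6 rose and none fell (5.53% and 8.19% over all tested genes), with a median of 0.39. Btn1a1, the butyrophilin of milk fat globules, had 12.1, 7.53, 10.96 and 12.6 TPM at week 4, against 3.62, 2.802, 2.88 and 3.24 TPM at week 3 (log2 difference 1.49 ± 0.18 SE, adjusted p = 0.00052). Olah, which ends medium-chain fatty acid synthesis in the lactating gland, had 4.82, 8.24, 5.902 and 11.4 TPM at week 4 and 3.597, 0.9205, 0.4103 and 0.931 TPM at week 3 (log2 difference 1.9 ± 0.39 SE, adjusted p = 0.0095). Lcn2, an abundant iron-binding secreted protein, had 7369, 6644, 7100.0 and 6884 TPM at week 4 and 4094, 3011, 3345 and 3119 TPM at week 3 (log2 difference 1.05 ± 0.22 SE, adjusted p = 0.011). Wap (1.21, adjusted p = 0.042), Cel (0.91, adjusted p = 0.019) and Cidea also rose, and the caseins Csn2 and Csn3 differed by 0.19 (adjusted p = 0.88) and -0.41 (adjusted p = 0.58). The count was 3 without week 4 replicate 3 or 4. Wap stood at 2.46 to 4.83 TPM at week 4 and 0 to 2.21 TPM at week 3, and missed without week 3 replicate 3 or 4 or any 1 week 4 library (0.0658 to 0.109), and Cidea missed without week 3 replicate 2 or 3 or any 1 week 4 library (0.0525 to 0.115).

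Among basal and myoepithelial genes, 3 of 14 tested fell and 2 rose (8.19% lower and 5.53% higher over all tested genes). Krt5, the keratin of basal cells (chr15:101707069-101712905, mm10), had 0.988, 1.21, 1.09 and 0.986 TPM at week 4, against 21.2, 20.98, 21.7 and 23.9 TPM at week 3 (log2 difference -3.47 ± 0.1 SE, adjusted p = 1.2e-08). It had the smallest adjusted p of the named genes, and both weeks were tight around their means, 1.07 ± 0.106 TPM at week 4 and 21.9 ± 1.34 TPM at week 3 (SD, n = 4 each). Its partner Krt14 had 32.9, 35.1, 24.7 and 29.2 TPM at week 4 and 56.6, 85.2, 69.8 and 65.6 TPM at week 3 (log2 difference -1.16 ± 0.15 SE, adjusted p = 0.00071). Krt17 went the other way, with 59.5, 77.8, 54.9 and 72.2 TPM at week 4 and 35.8, 37.6, 35.8 and 36.7 TPM at week 3 (log2 difference 0.83 ± 0.13 SE, adjusted p = 0.0023), as did the laminin receptor subunit Itga6 (0.73, adjusted p = 0.0021). Trp63, the basal transcription factor, had 15.9, 14.2, 18.02 and 12.3 TPM at week 4 and 17.3, 12.4, 18.9 and 14.6 TPM at week 3 (-0.06, adjusted p = 0.86), and the smooth muscle actin Acta2 differed by -0.05 (adjusted p = 0.96). Lgr5, a low gene, fell (-1.07, adjusted p = 0.031), a call lost without week 3 replicate 2, 3 or 4 or week 4 replicate 1, 3 or 4 (0.0652 to 0.0859).

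Of 13 tested squamous and barrier genes of 21 on the list, 3 fell and 1 rose (8.19% lower and 5.53% higher over all tested genes). Sprr1a, a precursor of the cornified envelope, had 0.438, 1.005, 0.9698 and 0.219 TPM at week 4, against 12.7, 8.67, 8.36 and 7.41 TPM at week 3 (log2 difference -2.64 ± 0.28 SE, adjusted p = 0.00027). Dsg3, a desmosomal cadherin, had no read at week 4 and 0.243, 1.53, 0.474 and 0.962 TPM at week 3 (10 to 64 reads), at least 12.4-fold lower by the 3-read limit. Klf4 fell with a wide spread, 46.4, 94.3, 80.04 and 137 TPM at week 4 and 214, 559.6, 293 and 266 TPM at week 3 (-1.89, adjusted p = 0.025), and missed without week 3 replicate 2 or 3 or week 4 replicate 1, 2 or 3 (0.0505 to 0.0737). Zfp750, a factor of epidermal differentiation, rose, with 33.6, 35.7, 35.3 and 54.6 TPM at week 4 and 13.6, 7.59, 9.99 and 11.7 TPM at week 3 (log2 difference 1.8 ± 0.2 SE, adjusted p = 0.00035). The count of falls was 1 without week 3 replicate 2 or week 4 replicate 1, 2 or 3.

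Part of the mesenchymal and matrix list fell. Of 30 tested, 11 fell and none rose (8.19% and 5.53% over all tested genes), with a median of -0.64. Vim, the intermediate filament of mesenchymal cells, had 608, 729, 766 and 738 TPM at week 4, against 1510.0, 2965, 1964 and 1618 TPM at week 3 (log2 difference -1.46 ± 0.31 SE, adjusted p = 0.011). The transcription factor Snai2 had 9.496, 10.6, 15.6 and 7.03 TPM at week 4 and 26.4, 18.3, 27.2 and 21.3 TPM at week 3 (log2 difference -1.09 ± 0.21 SE, adjusted p = 0.0061). Postn, a matricellular protein, had 244, 519, 427 and 652 TPM at week 4 and 728, 1593, 1278 and 1092 TPM at week 3 (log2 difference -1.38 ± 0.29 SE, adjusted p = 0.011). All week 4 libraries lay outside the week 3 range in these 3 genes. N-cadherin (Cdh2) differed by -1.71 (adjusted p = 0.0033), Lgals1 by -1.02 (adjusted p = 0.005), S100a6 by -1.06 (adjusted p = 0.012), Tgfb2 by -0.84 (adjusted p = 0.0037), Itgb1 by -0.59 (adjusted p = 0.0046) and the YAP target Ctgf by -0.55 (adjusted p = 0.021). Tnc, a matrix glycoprotein of invasive fronts, differed by -2.05 (adjusted p = 0.017), with an adjusted p of 0.0538 without week 3 replicate 2, its highest library. Col1a1, the main fibrillar collagen, had 378, 882, 634 and 1094 TPM at week 4 and 187, 1113, 498 and 673 TPM at week 3 (0.43, adjusted p = 0.73), with overlap and a difference of -0.05 without week 3 replicate 1. Of 18 tested metalloproteinases and inhibitors 2 fell, Mmp13 with 44.9, 86.05, 21.9 and 83.7 TPM at week 4 and 204, 315, 238 and 229 TPM at week 3 (log2 difference -2.21 ± 0.37 SE, adjusted p = 0.0033) and Timp1 with 41.4, 55.7, 73.3 and 117 TPM at week 4 and 189, 358, 219 and 198 TPM at week 3 (log2 difference -1.79 ± 0.31 SE, adjusted p = 0.0038). That count was not far from the 8.19% over all tested genes.

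Fibroblast markers did not fall as a list. The median was 0.32, and summed levels were 2620.0 to 8225 TPM at week 4 and 1822 to 7750.0 TPM at week 3. Of 18 tested, none rose and 1 fell, near the 8.19% lower over all tested genes. The gene was Pdgfrb, the receptor of pericytes and fibroblasts, with 13.3, 28.3, 37.8 and 28.01 TPM at week 4 and 70.6, 98.3, 129 and 85.4 TPM at week 3 (-1.85, adjusted p = 0.028). It missed without week 3 replicate 2, 3 or 4 or week 4 replicate 1, 2 or 4 (0.055 to 0.0821). Pdgfra differed by -0.09 (adjusted p = 0.84), and 2 fibroblast genes were called higher without week 3 replicate 2 or week 4 replicate 1. The part of fibroblasts in the fall of matrix genes was not tested.

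Several ligands of the EGF receptor fell. Of 14 tested genes of the family and its receptors, 5 fell and 1 rose (8.19% lower and 5.53% higher over all tested genes). Areg, which luminal cells release under estrogen, had 10.5, 16.9, 8.51 and 17.2 TPM at week 4, against 154, 221, 123 and 113 TPM at week 3 (log2 difference -3.43 ± 0.3 SE, adjusted p = 8.8e-05). Hbegf had 63.6, 84.2, 52.3 and 94.4 TPM at week 4 and 155, 348, 171 and 198 TPM at week 3 (log2 difference -1.51 ± 0.26 SE, adjusted p = 0.0035). Week 4 and week 3 values stood apart in both, as the rule for the largest falls required of Areg. Btc differed by -1.05 (adjusted p = 0.027), Ereg by -1.18 (adjusted p = 0.034) and Lrig1, which degrades the receptors, by -0.88 (adjusted p = 0.021), while the receptor Erbb3 rose (0.53, adjusted p = 0.032). The number of falls was 2 without week 3 replicate 2 or 3 or week 4 replicate 3 and 3 without week 4 replicate 1, 2 or 4. The rise was lost without week 3 replicate 1 or 3 or week 4 replicate 2, 3 or 4. Of 21 tested Wnt and Notch genes 3 fell, all of the Notch side, against 8.19% over all tested genes. Notch4, a receptor of endothelium, had 2.02, 2.65, 2.04 and 2.398 TPM at week 4 and 5.897, 11.2, 6.67 and 10.9 TPM at week 3 (log2 difference -1.52 ± 0.25 SE, adjusted p = 0.0029). The ligand Jag2 had 3.29, 2.96, 3.15 and 3.16 TPM at week 4 and 7.41, 8.68, 10.1 and 10.8 TPM at week 3 (log2 difference -1.29 ± 0.14 SE, adjusted p = 0.00027), and Jag1 differed by -0.74 (adjusted p = 0.047). Jag1 missed without any 1 of the libraries except week 3 replicate 1 (0.0739 to 0.121).

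Of 22 tested immediate early genes 4 fell and 1 rose, against 8.19% lower and 5.53% higher over all tested genes. Fosb had 162, 315, 244 and 332 TPM at week 4, against 849, 1544, 1037 and 1029 TPM at week 3 (log2 difference -2.1 ± 0.37 SE, adjusted p = 0.0044). Fos had 1332, 1816, 1647 and 1623 TPM at week 4 and 2862, 2154, 3065 and 2631 TPM at week 3 (-0.74, adjusted p = 0.041), and Fosl1 and Klf2 differed by -2.21 (adjusted p = 0.02) and -1.2 (adjusted p = 0.02). Ier3 rose (0.58, adjusted p = 0.012). There was no overlap of the weeks in Fosb or Fos. The number of falls was 1 or 2 without week 3 replicate 2 or 3 or week 4 replicate 1, 2 or 3.

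Few proliferation genes passed the test. Of 39 tested cell cycle genes 2 fell and none rose, with 30 of the 39 below 0 and a median of -0.19. That count of falls was under the 8.19% over all tested genes. The summed level of the list was 2151 to 2683 TPM at week 4 and 2739 to 2942 TPM at week 3, without overlap. The 2 that fell are inhibitors of cyclin-dependent kinases. With weeks 3 and 4 alone 7 fell and with array weights 8, and the count was 1 without any 1 week 3 library or week 4 replicate 1 or 3. Cdkn1a, the p53 target p21, had 66.6, 69.2, 53.9 and 74.98 TPM at week 4, against 126, 246, 142 and 169 TPM at week 3 (log2 difference -1.31 ± 0.29 SE, adjusted p = 0.014), and Cdkn2b differed by -0.77 (adjusted p = 0.038), a call that held without week 4 replicate 2 or 4 and was lost without any 1 of the other 6 libraries (0.074 to 0.1). Mki67 had 75.03, 91.4, 69.7 and 71.4 TPM at week 4 and 76.7, 68.5, 86.96 and 86.9 TPM at week 3 (-0.05, adjusted p = 0.8). Myc had 201, 262, 231 and 234 TPM at week 4 and 252, 246, 212 and 241 TPM at week 3 (-0.04, adjusted p = 0.92), overlapping, and its sign turned under quantile normalization (0.05). Of 20 tested genes of MYC and ribosome biogenesis 1 rose, the nucleolar GTPase Gnl3 (0.41, adjusted p = 0.01), and 1 fell, Mycn (-0.83, adjusted p = 0.023), which was under 3 TPM throughout and missed without week 3 replicate 1 or week 4 replicate 1 or 3 (0.0551 to 0.0664). Neither count stood far from the shares over all tested genes (5.53% higher and 8.19% lower).

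Few inflammatory genes passed the test, in both directions. Tnf had 464, 349, 323 and 387 TPM at week 4, against 193, 91.05, 148 and 182 TPM at week 3 (log2 difference 1.35 ± 0.23 SE, adjusted p = 0.0033), and was higher in 4 of 4 week 4 libraries. Ptgs2, the inducible cyclooxygenase, had 54.9, 80.1, 86.4 and 80.5 TPM at week 4 and 377, 666, 436 and 366 TPM at week 3 (log2 difference -2.57 ± 0.24 SE, adjusted p = 0.00018). Of 20 tested NF-kB and cytokine genes 2 rose (Tnf and Il23a) and 2 fell (Ptgs2 and Il33), near the shares over all tested genes (5.53% higher and 8.19% lower), with a median of -0.27. Il6 stood at 69.8, 104, 159 and 187 TPM at week 4 and 102, 230.1, 118 and 199.9 TPM at week 3 (-0.34, adjusted p = 0.56), and the NF-kB inhibitor Nfkbia differed by 0.06 (adjusted p = 0.8). Of 18 tested myeloid chemokines and growth factors 2 rose, Ccl20 and the monocyte attractant Ccl2 (0.71, adjusted p = 0.034), and 2 fell, the neutrophil attractant Cxcl5 (-0.82, adjusted p = 0.042) and Csf2 (-1.66, adjusted p = 0.026), which encodes GM-CSF, again near the shares over all tested genes. Cxcl1, another neutrophil attractant, differed by -0.08 (adjusted p = 0.78). The count of falls was 0 without week 3 replicate 2 or week 4 replicate 1 or 2 and 1 without week 3 replicate 1 or 4 or week 4 replicate 4, and that of rises was 1 without week 3 replicate 1, 3 or 4 or any 1 week 4 library.

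**Figure D4:**
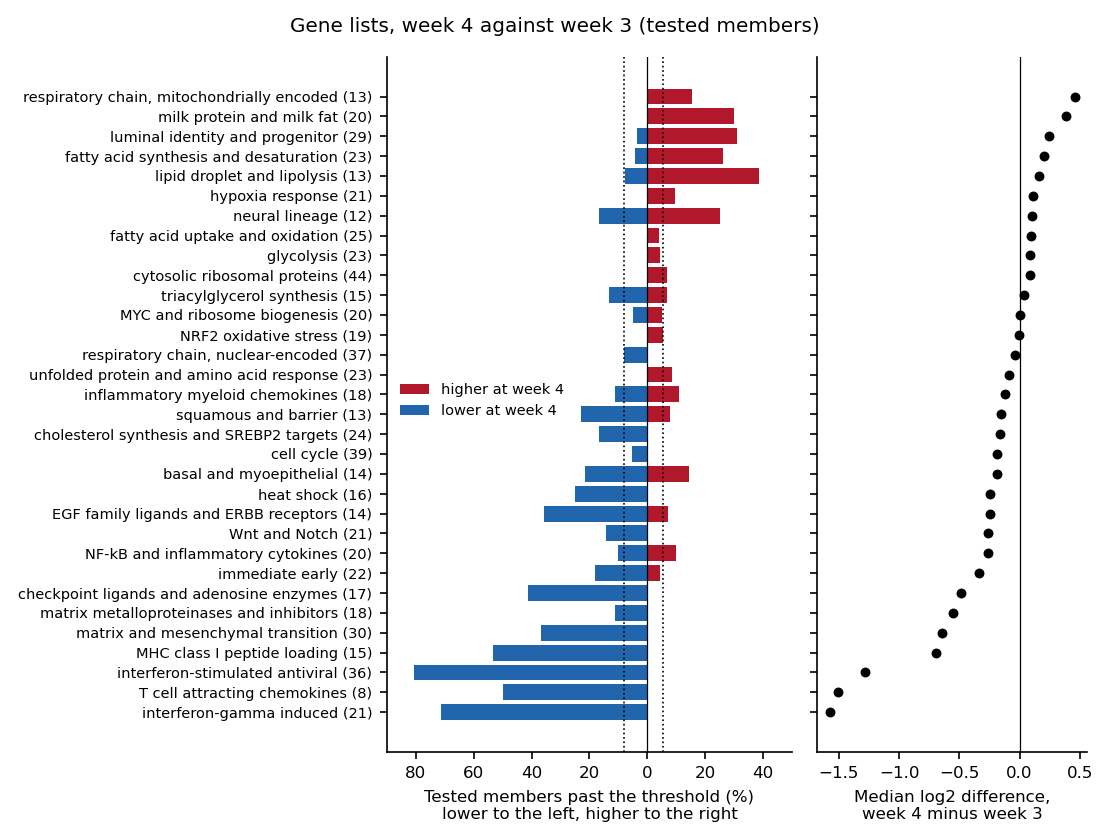
Left, the share of tested members of each gene list past the threshold, lower at week 4 to the left in blue and higher to the right in red, with the shares over all tested genes (8.19% and 5.53%) as dotted lines and the number tested in brackets. Right, the median log2 difference of each list, from -1.58 for interferon gamma genes to 0.46 for mitochondrially encoded genes.

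Endothelial genes had the largest share of falls among the marker lists of other cells. Of 17 tested of 18, 13 fell and none rose (8.19% and 5.53% over all tested genes), with a median of -1.71. The summed level was 115 to 140.2 TPM at week 4 and 244 to 527 TPM at week 3. Cdh5, the VE-cadherin of endothelial junctions, had 4.67, 6.18, 5.81 and 2.86 TPM at week 4, against 31.7, 67.2, 60.9 and 69.4 TPM at week 3 (log2 difference -3.29 ± 0.47 SE, adjusted p = 0.0014). Pecam1 (CD31) had 7.204, 9.59, 9.18 and 6.34 TPM at week 4 and 22.7, 59.8, 31.2 and 63.8 TPM at week 3 (log2 difference -2.21 ± 0.29 SE, adjusted p = 0.00083). The weeks did not overlap in either gene, and week 3 replicate 1 was the lowest of week 3 in both. The VEGF receptor Kdr differed by -1.86 (adjusted p = 0.0024) and the lymphatic receptor Flt4 by -1.71 (adjusted p = 0.0014). Flt1, a VEGF receptor that other cells also express, had 33.2, 30.5, 28.2 and 30.6 TPM at week 4 and 23.8, 29.9, 28.6 and 39.1 TPM at week 3 (0.03, adjusted p = 0.93), and Tek differed by 0.71 (adjusted p = 0.3). Between 12 and 15 fell under the 16 other settings and left-out libraries.

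Of the other lists, 1 of 5 tested neutrophil genes rose, S100a8, with 176, 196, 124 and 180.4 TPM at week 4 and 73.6, 59.7, 69.8 and 50.2 TPM at week 3 (log2 difference 1.4 ± 0.34 SE, adjusted p = 0.02). It missed without week 3 replicate 2 or 4 or week 4 replicate 1, 2 or 4 (0.0504 to 0.0573), and S100a9 differed by 0.53 (adjusted p = 0.39). The neutrophil sum was 146 to 235 TPM at week 4 and 83.1 to 93.4 TPM at week 3, with the defining Ly6g at 0 in all 8 libraries. Skeletal muscle genes summed to 6.14 to 8.46 TPM at week 4 and 13.2 to 35.96 TPM at week 3. Of 5 tested 1 fell (Tnni2 at -1.69, adjusted p = 0.00025). Over all tested genes 5.53% rose and 8.19% fell. None of 9 tested dendritic, 7 mast, 2 adipocyte or 3 erythroid and platelet genes passed the test. The summed levels at week 4 and week 3 were 192 to 241 and 243 to 268 TPM for dendritic, 5.21 to 9.03 and 8.695 to 19.8 TPM for mast, 19.3 to 44.2 and 25.2 to 113 TPM for adipocyte, and 7.77 to 19.9 and 11.9 to 18.8 TPM for erythroid genes. Fcer1a and Slc4a1 were at 0 in all 8 libraries. The part of any of these cells in the changes of other genes was not tested.

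The late step was then set against the early one, week 3 against week 2, in the same fit. Both steps share the week 3 libraries, so a high or low week 3 value moves them in opposite ways. In the early step 2967 genes rose (20.1%) and 593 fell (4.01%), with a median log2 difference of 0.14 over all tested genes. The difference between the steps passed the test in 340 genes (2.3%), of which 33 had the higher late step (0.223%) and 307 the lower (2.08%). The number was 67 without week 3 replicate 3, 83 without week 3 replicate 4 and 3557 without week 2 replicate 1. Leaving out any 1 of the other libraries gave 144 to 216, except week 2 replicate 3, which gave 413.

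Several of the largest falls were steeper in the late step than in the early one. Krt5 was level at first, with 25.1, 23.4 and 22.4 TPM at week 2, and its early difference was -0.1 (adjusted p = 0.49), its late one -3.47, so the steps differed by -3.37 (adjusted p = 8.6e-06). Grem1 had 38.9, 35.2 and 20.4 TPM at week 2, with steps of -0.16 and -4.65 that differed by -4.49 (adjusted p = 0.00078). Nt5e had steps of -0.05 and -2.53, Areg of -0.15 and -3.43, and Prkg2 of -0.39 and -3.58, and these differences passed as well (adjusted p = 0.0059, 0.013 and 0.0045). Pkp1 had steps of 0.78 (adjusted p = 0.073) and -3.62, which differed by -4.4 (adjusted p = 0.0024). Dynap fell in both steps, by -1.25 (adjusted p = 0.01) and -5.33, and the steps differed by -4.08 (adjusted p = 0.0024). In these 7 genes the call on the difference held under all 18 other settings and left-out libraries.

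The means of other genes peaked or dipped at week 3. Col10a1, a collagen of hypertrophic cartilage, had 14.5, 12.3 and 4.59 TPM at week 2, 26.1, 38.2, 50.2 and 33.9 TPM at week 3 and 1.299, 7.13, 2.97 and 4.05 TPM at week 4, with steps of 1.82 and -3.08 (difference -4.9, adjusted p = 0.0086). Fmod, a small matrix proteoglycan, had 10.4, 5.23 and 6.201 TPM at week 2, 24.5, 46.3, 45.4 and 30.5 TPM at week 3 and 5.69, 15.3, 4.29 and 6.71 TPM at week 4 (difference -4.34, adjusted p = 0.0066). Both calls held under all 18 other settings and left-out libraries. Efhd1 dipped in its mean, with 19.8, 16.3 and 3.55 TPM at week 2, 2.58, 3.9, 2.001 and 3.38 TPM at week 3 and 8.21, 13.1, 24.4 and 13.3 TPM at week 4 (difference 3.52, adjusted p = 0.047). Week 2 replicate 3 lay within its week 3 range. The call on the difference in Efhd1 was lost without any 1 week 3 or week 4 library or week 2 replicate 2 (up to 0.168). Hhipl2 was the firmest of the genes with the higher late step (early -0.09, late 2.28, difference 2.37, adjusted p = 0.0032), and its call held under all 18. Snora17, a small nucleolar RNA, the uncharacterised Gm32457 and Tmem100 also had the higher late step, at differences of 3.88, 2.69 and 2.92 (adjusted p = 0.033, 0.022 and 0.049). Each of these 3 calls was lost under at least 1 left-out library, all 3 without week 3 replicate 4 (0.0918 to 0.162). Gfap, Krt23 and Btn1a1 had the higher late step as well (adjusted p of the difference 0.025, 0.044 and 0.04). Their calls were lost under 8, 14 and 11 of the 18 other settings and left-out libraries.

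Of the endothelial list, 8 of 17 genes had the lower late step and none the higher (2.08% and 0.223% over all tested genes). The count of lower late steps was 1 without the filter on low values and with the replicate block. It was also 1 without week 3 replicate 2, 3 or 4 or week 2 replicate 2. It was 2 without week 4 replicate 1 or 4, and 5 without week 4 replicate 3 or with either rescaling. It was 12 with array weights and 15 without week 2 replicate 1. Pecam1 had steps of 0.14 and -2.21 (adjusted p of the difference 0.041), a call lost under 13 of the 18, and Cdh5, with steps of 0.25 and -3.29, did not pass the test of the difference (0.056).

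Mogat1, Scd1, Tnf and S100a4 moved the same way in both steps. Mogat1 had 1.94, 1.02 and 3.87 TPM at week 2, with an early difference of 1.31 (adjusted p = 0.0083) and a late one of 2.33, and the steps did not pass the test of their difference (1.02 ± 0.46 SE, adjusted p = 0.26). Scd1 had steps of 1.08 and 1.3, and Tnf of 1.16 and 1.35 (adjusted p of the difference 0.66 and 0.84). S100a4 fell in both steps, by -1.74 and -3.42 (0.097). Among 36 antiviral genes 13 fell in the early step and 29 in the late one, and among 21 interferon gamma genes 4 and 15. Over all tested genes 4.01% fell in the early step and 8.19% in the late one. No gene of the antiviral or interferon gamma list passed the test of the difference between steps. In fatty acid synthesis the steps differed in 1 of 23 genes, Me1 (-0.65, adjusted p = 0.046), with 16 early rises and 6 late ones. Cholesterol genes had 15 early rises and, in the other direction, 4 late falls, and none of the 24 passed the test of the difference. Rises were more common in the early step over all tested genes too, at 20.1% against 5.53% in the late step.

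**Figure D5:**
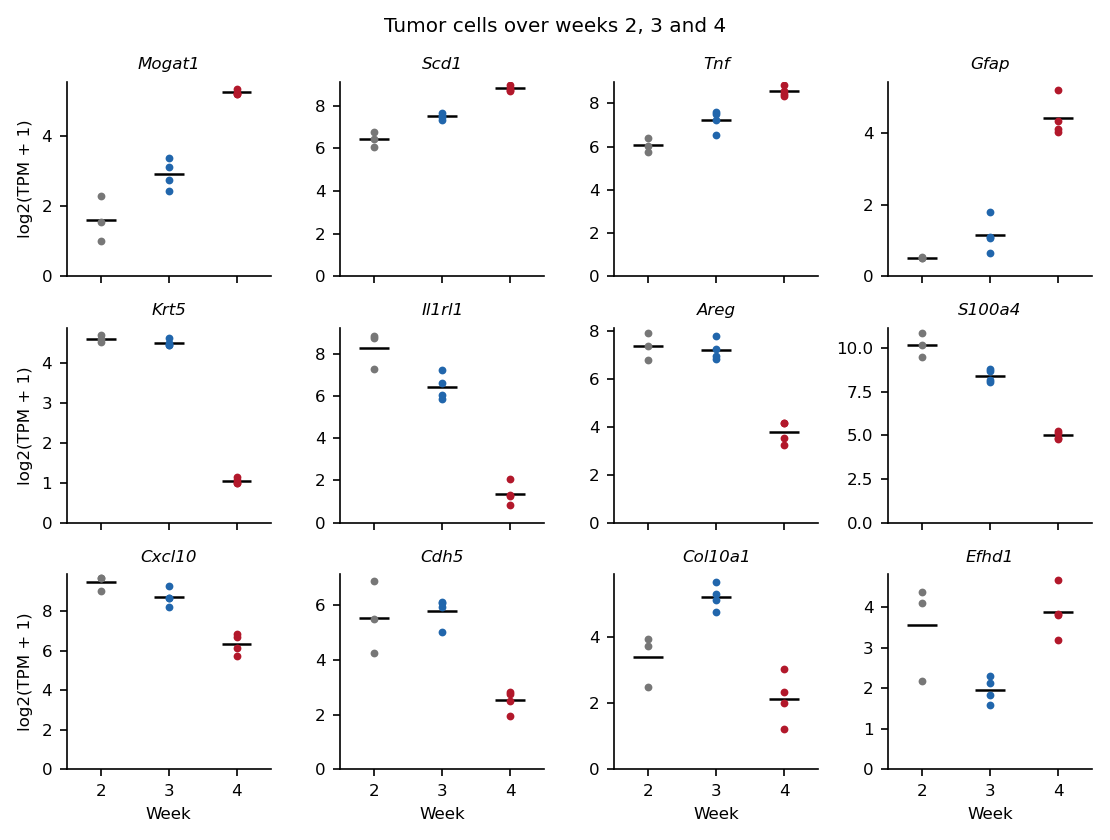
Levels of 12 genes as log2(TPM + 1) in each library of week 2 (grey, 3 libraries), week 3 (blue, 4) and week 4 (red, 4), with the mean as a bar. Mogat1, Scd1 and Tnf climb across both steps, Krt5, Areg and Cdh5 fall in the late step, and the means of Col10a1 and Efhd1 turn at week 3.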

How the data were processed

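Messenger RNA libraries of tumor cells at weeks 2, 3 and 4 were made with a stranded kit, per the labels' protocols. The authors deposited TPM values per gene. FastQC, Trim Galore, HISAT2 and the build mm10 are named, per the submitters' processing notes, without versions. The counter, annotation, gene lengths and strand setting are not given in the sources used here. TPM values are relative to each library's total, so a large rise of some genes lowers the others. The values of each gene were whole multiples of what 1 read is worth, and whole reads were recovered for 100.0% of 33681 rows within 0.05 reads, giving 21.9 to 29.7 megareads per week 3 or 4 library. Rows at 0 in every library, or above 0 in only 1, pass that check by construction. Without the date rows, 25371 rows were above 0 in at least 1 library. Limits drawn from a count of 0 cover counting error only.

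Of the rows, 27 named as a date were left out. The 14770 genes at 1 TPM or more in at least 3 of 11 libraries were fitted as log2(TPM + 1) with limma 3.58.1 (R 4.3.3, moderated test with a trend) on week, two-sided. All 3 weeks shared 1 estimate of the spread. P-values were adjusted over all tested genes by Benjamini-Hochberg, with calls at 0.05. Fold changes on this scale understate those of low genes. The late and early steps were compared as a contrast of the same fit. A voom fit on the recovered reads, added after seeing the files, called 2047 genes, 1693 of them shared with the fit above. Other alternatives were a pseudocount of 0.1, no filter, median-of-ratios and quantile scaling, array weights, a replicate block, weeks 3 and 4 alone, and each library left out. The script was tested on simulated data. Tables were handled with Python 3.11.15 and pandas 2.3.3, and figures drawn with matplotlib 3.10.9.

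Members and gene lists were chosen with earlier results of these data known, so no list is independent evidence of its direction. Named genes were the 15 largest rises and 15 largest falls among called genes whose weeks did not overlap, leaving out unnamed gene models, up to 3 called members with the largest difference in each list, 28 fixed genes, and the 5 largest differences between steps each way. Some genes that the rule names are not reported here. Other genes named were chosen after their values were seen, for their roles. The 3 tables of other comparisons were not used. The whole-read test of replicates found no pair of libraries within sampling noise.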

Additional observations from a re-analysis of the deposited data

Results flagged for a closer look

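In 14 of 272 groups of 4 libraries of a named gene, 1 library lay farther from the others than Dixon's test allows at the 95% level. Chance flags about 1 in 20 groups, so 14 is near that rate. Week 4 replicate 4 was high in Kit (114 TPM, others 86.8 to 90.2), Zfp750 (54.6, others 33.6 to 35.7) and Agpat3 (7.95, others 5.61 to 5.97). Week 4 replicate 3 was low in Ebp (31.9, others 35.1 to 35.7) and Msmo1 (41.5, others 48.6 to 48.7). Week 4 replicate 2 was high in Acss2 (23.7, others 20.9 to 21.2) and in Prl2c2 (0.181, others at 0). Week 3 replicate 2 was high in Hspa4l (24.4, others 14.8 to 16.1), Tnc (258, others 121 to 144) and Rpl30 (332, others 306 to 310). Week 3 replicate 1 was high in Mycn (2.59, others 1.35 to 1.45), Olah (3.6, others 0.41 to 0.931) and Rnu3a (31.9, others 16.9 to 18.1). Week 3 replicate 4 was low in Hmga2 (32.2, others 64.2 to 69.1).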

How the results depend on the processing

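Of 124 named genes called between week 4 and week 3, 77 passed under all 16 alternatives and 47 missed under at least 1. With array weights 4614 genes were called (2051 higher, 2563 lower) and 345 list genes, and with weeks 3 and 4 alone 3857 (1742 higher, 2115 lower) and 307 list genes, against 190 list genes in the fit reported. Leaving out 1 library of either week gave 1251 to 1656 genes, 467 to 604 higher and 760 to 1052 lower, with 136 to 164 list genes and 92 to 107 named genes. For the difference between steps, the number called was 194 (17 higher, 177 lower) without the filter and 2155 (144 and 2011) with array weights. The lower late steps numbered 198 with median-of-ratios scaling and 202 with quantile normalization, and the higher ones 17 with voom. Leaving out 1 library gave 67 to 3557 in all, 5 to 353 higher and 62 to 3204 lower.

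With the replicate number as a block 1470 genes were called between the weeks (571 higher, 899 lower), and 106 between the steps (6 higher, 100 lower). Deviations of same-numbered libraries correlated at 0.233, -0.0517, -0.0886 and 0.0157 for numbers 1 to 4, and only number 1 correlated best with its own. The labels do not say whether same-numbered libraries share an animal or a batch, and so few correlations cannot decide it. The difference in Col1a1 was -0.0537 without week 3 replicate 1 and up to 0.802 without another library. That in Dgat1 was -0.0305 without week 3 replicate 3, also below 0 without week 3 replicate 1 or week 4 replicate 4, and up to 0.099 without another. That in Myc was 0.0465 with quantile normalization, 0.00337 with array weights and -0.0993 to 0.0283 with 1 library left out, above 0 only without week 4 replicate 1. The cause of these moves was not tested. Genes that averaged under about 1 TPM at week 4, such as Prl2c2 and Jchain, rest on few reads, and so does Mir6976, with 1 to 8 reads per library at week 4.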

Other observations

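Genes of both sex chromosomes that mark sex were found in every tumor library. Ddx3y, a Y-linked helicase, had 48.4, 59.8, 46.4 and 49.7 TPM at week 4 and 65.6, 73.2, 56.3 and 52.1 TPM at week 3, and Kdm5d, Uty and Eif2s3y were also present in all 8 libraries. Xist, the RNA of the inactive X chromosome, had 14.4, 26.3, 20.4 and 23.8 TPM at week 4, against 12.8, 26.6, 0.697 and 29.9 TPM at week 3 (log2 difference 0.87, adjusted p = 0.48, limma with Benjamini-Hochberg adjustment). The library of week 3 replicate 3 stood far below the other 7 in Xist and within their range in Uty and Ddx3y, and it was the highest of the 8 in Kdm5d, at 9.44 TPM. At week 2 Xist stood at 40 to 42 TPM. None of these genes passed the test between week 4 and week 3.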
